A study of Arabidopsis thaliana with 44 samples.

Results

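Seedlings of Arabidopsis thaliana with mutations in both bZIP28 and bZIP60, a pair of transcription factors of the endoplasmic reticulum (ER) stress response, were set against wild-type (WT) seedlings in a ground experiment. The members are 8 of the 40 libraries in the deposited table, taken by column name: 4 of bzip28-2 bzip60-1 and 4 of WT, both in the Col-0 ecotype. Both groups were grown for 14 days in the dark on 60 mm plates with 0.5% sucrose inside the closed canister hardware of a space flight, started 2 days after the flight units, and whole seedlings were fixed in RNAlater. The labels name no chemical treatment, so both genotypes were measured without an added ER stress. The single mutants bzip28-2 and bzip60-2 on the ground, and bzip28-2 bzip60-1 and WT in flight, also 4 libraries each, serve below for comparison. The bzip60 allele differs between the double mutant (bzip60-1) and the single mutant (bzip60-2). The labels do not say which libraries came from separate plates, so the p-values measure only the spread between libraries, which may be technical.

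bZIP28 is held in the ER membrane and, when unfolded proteins build up, travels to the Golgi, where the proteases S1P and S2P release its DNA-binding part. bZIP60 is made as a membrane-bound protein too, and its messenger RNA is spliced by the ER kinase and nuclease IRE1 into a form that encodes a free nuclear factor. Both factors bind ER stress response elements in promoters and raise chaperones of the BiP family, protein disulfide isomerases, glycosylation enzymes and parts of the secretory machinery, a programme called the unfolded protein response.

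Values are FPKM, fragment numbers divided by transcript length and by the size of the library, so that levels are per length. The table holds no read counts and the depth of each library is unknown. Total FPKM per library ran between 1400258 and 2394953 in bzip28 bzip60 and between 1696550 and 2374427 in WT, and the single locus AT2G01021 took 74.1 ± 13.2% of it in bzip28 bzip60 and 79.5 ± 4.50% in WT (SD, n = 4 each, two-sided exact permutation p = 0.629, where 4 against 4 libraries cannot go below 0.0286). The counts over all loci are therefore given as deposited and again after each library was rescaled by its median ratio, while values by library are as deposited and differences of single genes are after rescaling unless the deposited scale is named. The ratio was taken over the 14104 loci above 1 FPKM in all 40 libraries. On a log2 scale the rescaling factor averaged -0.29 ± 0.30 in bzip28 bzip60 and -0.50 ± 0.17 in WT (exact permutation p = 0.371). One library stood apart: bzip28 bzip60 replicate 4 had a factor of 0.15, against -0.47 to -0.40 in the other 3 of its group. A listed 0 can be a failed estimate in this table, since 209 of 13827 tested loci with a mean of at least 5 FPKM are listed at 0 in 1 or more of the 8 libraries.

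Differences are of log2(FPKM + 1), bzip28 bzip60 minus WT, with the standard error (SE) of the fit, and understate the change of low genes. A locus is called where its Benjamini-Hochberg adjusted p from limma over the 19186 loci tested was below 0.05. "Rose" and "fell" are used only of called loci and refer to the rescaled values unless the deposited ones are named.

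Of 83 tested genes of the ER stress response and secretion 14 fell in bzip28 bzip60, among them the co-chaperone ERDJ3A (-1.37 ± 0.14) and the chaperone BIP2 (-0.74 ± 0.079), and of 31 nuclear genes of photosynthesis 8 rose, among them the light-harvesting gene LHCB1.3 (1.51 ± 0.26), all after rescaling. The counts over all loci were as follows. As deposited, 150 loci (0.782%) were called higher and 21 (0.109%) lower in bzip28 bzip60. After rescaling, 238 (1.24%) were called higher and 213 (1.11%) lower. On both scales together 138 loci (0.719%) were higher and 21 (0.109%) lower. Rescaling moved the median difference of all tested loci to 0.015, against 0.19 as deposited, where 83.2% of loci had a positive difference. The values of the groups did not overlap for 1533 loci with bzip28 bzip60 above WT and 52 below as deposited, and for 659 above and 640 below after rescaling.

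The number of calls depended on the libraries that estimated the spread. The fit over 40 libraries pools ground and flight, and the median standard deviation within a group was 0.18 in ground bzip28 bzip60 and 0.19 in ground WT, against 0.12 to 0.15 in the flight groups (log2, rescaled). With the 20 ground libraries alone, 11 loci were called higher and 37 lower after rescaling. With the 8 libraries alone, 5 were higher and 24 lower. Single libraries also moved the counts. After rescaling, 76 loci were higher without WT replicate 3, 365 without WT replicate 2, 131 without bzip28 bzip60 replicate 1 and 152 without its replicate 3. Likewise 104 were lower without WT replicate 3, 127 without WT replicate 4 and 110 without bzip28 bzip60 replicate 1. As deposited, 20 were higher without WT replicate 3, 21 without bzip28 bzip60 replicate 4, 70 without its replicate 1, and 91, 78 and 88 without WT replicates 1, 2 and 4. As deposited, 11 were lower without any 1 of bzip28 bzip60 replicate 1, WT replicate 3 and WT replicate 4, and 13 without WT replicate 1.

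**Figure D1:**
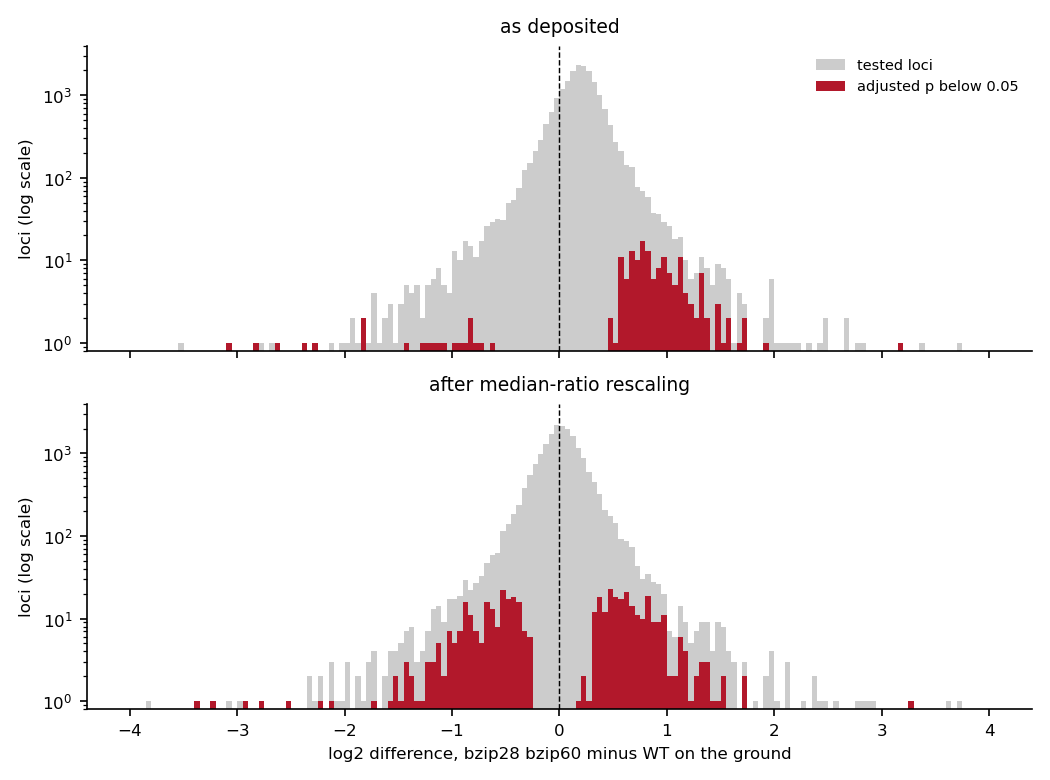
Histograms of the log2 difference, bzip28 bzip60 minus WT on the ground, over the 19186 tested loci, as deposited and after rescaling, with a log axis for the number of loci. The median lies at 0.19 as deposited and at 0.015 after rescaling.

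Both disrupted genes had low transcript levels in every bzip28 bzip60 library. bZIP28 (AT3G10800) measured 2.69, 2.43, 1.75 and 3.42 FPKM in bzip28 bzip60, against 21.2, 19.2, 22.7 and 20.7 FPKM in WT. bZIP60 (AT1G42990) measured 8.75, 10.1, 7.40 and 10.5 FPKM in bzip28 bzip60, against 54.4, 41.6, 49.9 and 49.5 FPKM in WT. The groups were far apart for both genes, and all 8 libraries matched their labels. The difference of bZIP28 was -2.64 ± 0.17 as deposited and -2.91 ± 0.10 after rescaling (adjusted p = 2.12e-13 and 9.34e-21). The difference of bZIP60 was -2.30 ± 0.18 as deposited and -2.52 ± 0.11 after rescaling (adjusted p = 2.40e-11 and 7.09e-18). FPKM covers the whole locus and does not show which part of a disrupted transcript was read. Within sequencing lane 2 (2 libraries of each genotype) the rescaled differences were -2.81 for bZIP28 and -2.40 for bZIP60. Within lane 3 (2 libraries of bzip28 bzip60 and 1 of WT) they were -3.0 and -2.69, and lane 4 held 1 WT library only.

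The same genes in the single mutants showed 1 departure from their label. Rescaled bZIP60 averaged 11.3 ± 1.90 FPKM in bzip28 bzip60, 12.2 ± 1.27 in bzip60-2, 63.2 ± 6.90 in bzip28-2 and 68.9 ± 3.06 in WT. Rescaled bZIP28 averaged 3.09 ± 0.48 FPKM in bzip28 bzip60 and 25.3 ± 1.88 in bzip60-2, but 68.9 ± 14.7 in the libraries labelled bzip28-2, above the 29.6 ± 1.85 of WT (SD, n = 4 each). The bZIP28 level of the libraries labelled bzip28-2 was thus not that of the double mutant, although both carry the same allele name.

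Several genes of ER protein folding were lower in bzip28 bzip60. Of 83 tested members in 6 lists of ER stress and secretory genes, 14 fell and 0 rose after rescaling in the limma fit, none was higher at an unadjusted p below 0.05, and 65 had a negative difference. As deposited, 3 of the 83 were called lower, ERDJ3A, PDIL2-2 and UTR3, and 0 higher. The deposited call of PDIL2-2 was lost without bzip28 bzip60 replicates 1 or 2 or any 1 of the WT libraries (-0.64 to -0.51), and that of UTR3 without bzip28 bzip60 replicates 1, 2 or 3 or WT replicates 1, 3 or 4 (-0.83 to -0.66). The 14 of 83, and the counts of the 6 lists given below, stand beside 1.11% of all tested loci called lower after rescaling. The lists were chosen with earlier results of these data known, so these counts are descriptions. In 13 of the 14 all rescaled bzip28 bzip60 values lay below all WT values, PDIL2-3 being the exception. This was so for 3.34% of all tested loci, and since the 14 are the members called lower, nothing is read from it. Within lane 2 the 14 rescaled differences lay between -1.66 and -0.24, and within lane 3 between -1.14 and -0.20. With the spread of the 20 ground libraries alone 6 of the 14 kept their call (BIP2, ERDJ3A, UTR3, UTR1, PDIL2-2 and SEC61A2), and with the 8 libraries alone 3 did (BIP2, ERDJ3A and UTR3). In bulk seedlings, fewer cells of a type and less RNA per cell cannot be told apart.

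**Figure D2:**
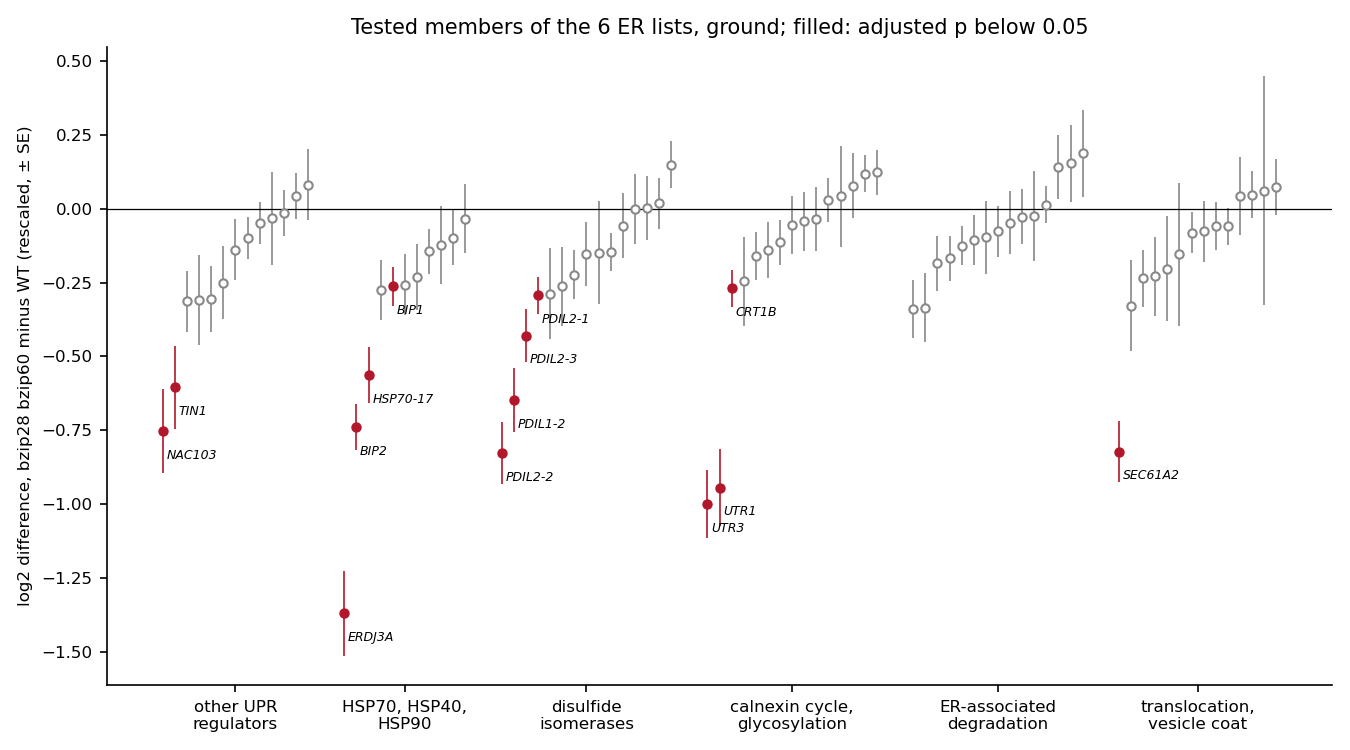
Rescaled log2 difference with its SE, bzip28 bzip60 minus WT on the ground, for the 83 tested members of 6 ER lists. Filled points have an adjusted p below 0.05, and all 14 of them lie below 0.

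Promoters were searched for letters of known ER stress elements, and the shares with a match were not tested. Windows of 300 bases before the annotated gene start were read from RefSeq's TAIR10.1 sequence and searched on both strands. The ER stress response element (ERSE), CCAATNNNNNNNNNNCACG, was found in 3 of the 14 genes that fell (21.4%), in 9 of the other 69 tested ER list members (13%) and in 0.747% of 27438 promoters. The unfolded protein response element (UPRE), TGACGTGG, was found in 2 of the 14 (14.3%), in 5 of the 69 (7.25%) and in 1.33% of all promoters. The shorter letters TCATCG were found in 1 of the 14 (7.14%), in 9 of the 69 (13%) and in 7.89% of all. The G-box CACGTG, which overlaps the end of several ERSE matches, was found in 5 of the 14 (35.7%), in 13 of the 69 (18.8%) and in 7.09% of all. ERSE-II, which has ATTGG and CCACG 1 base apart, was found in none of the 83 and in 0.0656% of all promoters. No match to any of these letters was found in the windows of 8 of the 14 (57.1%), NAC103, BIP1, BIP2, ERDJ3A, PDIL2-1, PDIL2-2, PDIL2-3 and CRT1B, in those of 48 of the 69 (69.6%) and in 84.4% of all promoters. A match is a description of the sequence and not a bound site. The 5 windows below were chosen because they carry an ERSE or a UPRE, and BIP3 is not among the 14. They are written 5′ to 3′ on the strand of the gene and end at the base before its start. Capitals mark every match, and matches that overlap run together.
HSP70-17, chr4:9376399-9376698, plus strand: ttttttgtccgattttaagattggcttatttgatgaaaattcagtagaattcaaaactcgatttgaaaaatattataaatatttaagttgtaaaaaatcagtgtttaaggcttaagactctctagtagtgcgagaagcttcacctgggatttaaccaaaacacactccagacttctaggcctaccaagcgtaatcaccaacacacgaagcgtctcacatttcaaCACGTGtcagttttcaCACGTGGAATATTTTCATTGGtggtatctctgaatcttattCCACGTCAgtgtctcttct
UTR3, chr1:4913168-4913467, minus strand: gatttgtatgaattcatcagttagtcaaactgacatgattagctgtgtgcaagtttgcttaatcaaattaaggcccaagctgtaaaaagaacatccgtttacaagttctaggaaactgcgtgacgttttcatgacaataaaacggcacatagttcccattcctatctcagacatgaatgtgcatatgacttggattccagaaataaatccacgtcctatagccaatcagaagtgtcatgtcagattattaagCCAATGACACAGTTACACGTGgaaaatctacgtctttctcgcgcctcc
PDIL1-2, chr1:29126348-29126647, plus strand: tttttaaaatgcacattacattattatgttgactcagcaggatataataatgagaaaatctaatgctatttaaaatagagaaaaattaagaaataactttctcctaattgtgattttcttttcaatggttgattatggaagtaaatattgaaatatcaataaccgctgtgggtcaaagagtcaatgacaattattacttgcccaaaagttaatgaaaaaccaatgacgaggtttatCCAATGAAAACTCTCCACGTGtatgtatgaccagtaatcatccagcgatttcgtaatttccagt
TIN1, chr5:25784104-25784403, plus strand: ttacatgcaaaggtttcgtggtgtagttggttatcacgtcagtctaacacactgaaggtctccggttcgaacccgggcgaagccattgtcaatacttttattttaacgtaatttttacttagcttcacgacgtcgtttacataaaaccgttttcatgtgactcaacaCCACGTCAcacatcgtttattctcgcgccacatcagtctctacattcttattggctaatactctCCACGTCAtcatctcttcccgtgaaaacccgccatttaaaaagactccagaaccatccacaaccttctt
BIP3, chr1:2931851-2932150, minus strand: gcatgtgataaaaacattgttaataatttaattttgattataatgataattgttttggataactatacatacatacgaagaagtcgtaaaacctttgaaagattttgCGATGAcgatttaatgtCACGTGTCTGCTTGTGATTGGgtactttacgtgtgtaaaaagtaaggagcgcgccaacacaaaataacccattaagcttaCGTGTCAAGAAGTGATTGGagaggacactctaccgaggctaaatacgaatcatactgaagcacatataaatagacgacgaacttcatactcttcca

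Of 13 tested regulators of the response other than the disrupted genes, 2 fell, NAC103 and TIN1, and 0 rose (median difference 0.046 as deposited and -0.14 after rescaling). NAC103, a transcription factor gene that acts downstream of bZIP60, measured 0.409, 0.215, 0.193 and 0.989 FPKM in bzip28 bzip60, against 1.09, 0.698, 1.33 and 1.19 FPKM in WT. Its groups overlap as deposited and separate after rescaling, with a difference of -0.54 ± 0.17 as deposited (adjusted p = 0.1344) and -0.75 ± 0.14 after rescaling (adjusted p = 0.002286). TIN1, a tunicamycin-induced ER protein with 2 UPRE matches in the window shown above, measured 1.31, 1.25, 1.47 and 2.296 FPKM in bzip28 bzip60, against 2.03, 1.73, 2.69 and 3.36 FPKM in WT. bzip28 bzip60 replicate 4 was the highest of its group for both genes. The difference of TIN1 after rescaling was -0.60 ± 0.14 (adjusted p = 0.01399), and it was not called without bzip28 bzip60 replicate 1 (-0.58), WT replicate 3 (-0.59) or WT replicate 4 (-0.48). bZIP17, a close relative of bZIP28, had rescaled means of 19.3 ± 0.19 FPKM in bzip28 bzip60 and 19.6 ± 1.89 FPKM in WT, a difference of -0.015 ± 0.077. S1P, the protease that cleaves bZIP28, had 14.2 ± 1.91 FPKM in bzip28 bzip60 and 13.7 ± 0.87 FPKM in WT. BAG7, an ER co-chaperone of the response, had 70.0 ± 11.03 FPKM in bzip28 bzip60 and 65.7 ± 6.53 FPKM in WT, also rescaled. None of these 3 genes passed the test.

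Of 11 tested ER chaperones of the HSP70, HSP40 and HSP90 families, 4 fell and all 11 had a negative rescaled difference (median -0.053 as deposited and -0.26 after rescaling). ERDJ3A, a J-domain partner of BiP, had the largest difference of the 83 ER genes. It measured 0.412, 0.488, 0.985 and 1.18 FPKM in bzip28 bzip60, against 3.12, 2.38, 3.09 and 2.38 FPKM in WT. No library of one group reached the range of the other on either scale. Its difference was -1.10 ± 0.18 as deposited (adjusted p = 8.71e-04) and -1.37 ± 0.14 after rescaling (adjusted p = 7.63e-08). BIP2, one of the main HSP70 chaperones of the ER, measured 13.4, 12.5, 13.7 and 19.3 FPKM in bzip28 bzip60, against 25.1, 15.8, 21.6 and 24.6 FPKM in WT. The deposited values overlap only through bzip28 bzip60 replicate 4 and WT replicate 2, and rescaling brought the means to 17.79 ± 0.86 FPKM in bzip28 bzip60 and 30.5 ± 3.81 FPKM in WT. The difference of BIP2 was -0.53 ± 0.16 as deposited (adjusted p = 0.1208) and -0.74 ± 0.079 after rescaling (adjusted p = 1.04e-07). HSP70-17, an HSP70-type ER protein whose window above holds an ERSE, a UPRE and 2 G-boxes, measured 10.3, 9.67, 8.56 and 15.1 FPKM in bzip28 bzip60, against 17.99, 9.16, 15.8 and 14.5 FPKM in WT. It overlaps as deposited and fell by 0.56 ± 0.094 after rescaling (adjusted p = 5.13e-04). BIP1, whose near-identical coding sequence could share reads with BIP2, had rescaled means of 50.2 ± 2.90 FPKM in bzip28 bzip60 and 60.4 ± 3.65 FPKM in WT. Its difference of -0.26 ± 0.066 (adjusted p = 0.02529) was not called without bzip28 bzip60 replicates 1 or 4 or WT replicates 1 or 4 (-0.26 to -0.23).

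BIP3, the strongly stress-inducible BiP gene, was below the minimum mean of 1 FPKM and was not in the main test. It measured 0.222, 0.1003, 0 and 0.104 FPKM in bzip28 bzip60, against 0.381, 0.534, 0.554 and 0.705 FPKM in WT, so the groups did not overlap. Its window holds 2 ERSE matches. In a fit with no minimum, the rescaled difference was -0.65 ± 0.13 (adjusted p = 0.006225).

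Of 15 protein disulfide isomerases and ERO1 oxidases, which form disulfide bonds in the ER, 4 fell (median 0.011 as deposited and -0.15 after rescaling). PDIL2-2 measured 2.24, 1.98, 3.16 and 3.84 FPKM in bzip28 bzip60, against 4.46, 4.62, 4.99 and 4.84 FPKM in WT. All 4 bzip28 bzip60 values lie below the lowest WT value as deposited as well. Its difference was -0.615 ± 0.153 as deposited (adjusted p = 0.04215) and -0.83 ± 0.11 after rescaling (adjusted p = 4.51e-06). PDIL1-2, with an ERSE that overlaps a G-box in the window above, had rescaled means of 13.4 ± 1.76 FPKM in bzip28 bzip60 and 21.5 ± 1.89 FPKM in WT, a difference of -0.65 ± 0.11 (adjusted p = 4.88e-04). PDIL2-3 differed by -0.43 ± 0.090 (adjusted p = 0.006503) and PDIL2-1 by -0.29 ± 0.062 (adjusted p = 0.006746), the smaller differences of the 4.

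Of 15 genes of the calnexin cycle and of N-glycosylation, 3 fell (median 0.14 as deposited and -0.056 after rescaling). UTR3 and UTR1 are ER carriers for nucleotide sugars, and CRT1B is a calreticulin, a lectin chaperone. UTR3 measured 5.27, 6.43, 5.02 and 9.08 FPKM in bzip28 bzip60, against 10.5, 8.68, 15.4 and 12.7 FPKM in WT. Only bzip28 bzip60 replicate 4 exceeded the lowest WT value as deposited, and none did after rescaling. Its difference was -0.79 ± 0.20 as deposited (adjusted p = 0.04215) and -0.999 ± 0.114 after rescaling (adjusted p = 4.76e-07). UTR1 had rescaled means of 3.53 ± 0.76 FPKM in bzip28 bzip60 and 7.77 ± 1.86 FPKM in WT, a difference of -0.94 ± 0.13 (adjusted p = 2.29e-05). CRT1B had rescaled means of 41.7 ± 2.81 FPKM in bzip28 bzip60 and 50.4 ± 1.39 FPKM in WT, a difference of -0.27 ± 0.062 (adjusted p = 0.01245) that was not called without bzip28 bzip60 replicate 2 (-0.23).

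Of 14 tested genes of the translocation pore and the vesicle coat, 1 fell, SEC61A2, which encodes the channel subunit of the pore (list median 0.13 as deposited and -0.079 after rescaling). It measured 10.5, 9.54, 11.1 and 15.1 FPKM in bzip28 bzip60, against 17.79, 12.9, 19.8 and 23.2 FPKM in WT. The lowest WT library lies within the deposited range of bzip28 bzip60, and after rescaling the groups are apart, with a difference of -0.82 ± 0.10 (adjusted p = 2.96e-06). SEC31A, an outer subunit of the COPII coat that buds vesicles from the ER, was under the minimum for the main test but had a sharp pattern. It was listed at 0, 0, 0.0142 and 0 FPKM in bzip28 bzip60, against 1.69, 0.714, 1.42 and 1.75 FPKM in WT. With no minimum its rescaled difference was -1.52 ± 0.093 (adjusted p = 2.68e-13). Rescaled SEC31A ranged between 0 and 0.0142 FPKM in bzip60-2, between 0 and 0.0342 FPKM in ire1a-4 ire1b-2, and between 0.407 and 1.23 FPKM in bzip28-2 on the ground. The level was therefore near 0 in each ground genotype mutant in bZIP60 or in the IRE1 pair.

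None of the 15 genes of ER-associated degradation, which returns misfolded proteins to the cytosol for destruction, passed the limma test in either direction, and 0 were higher and 3 lower at an unadjusted p below 0.05 after rescaling (median 0.12 as deposited and -0.076 after rescaling). Their rescaled differences lay between -0.34 and 0.19. None of 9 genes of phospholipid synthesis passed either, with differences between -0.25 and 0.27 and 1 higher and 0 lower at that unadjusted p. For lists this small, no call is near the share of all tested loci (1.24% higher and 1.11% lower after rescaling).

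**Figure D3:**
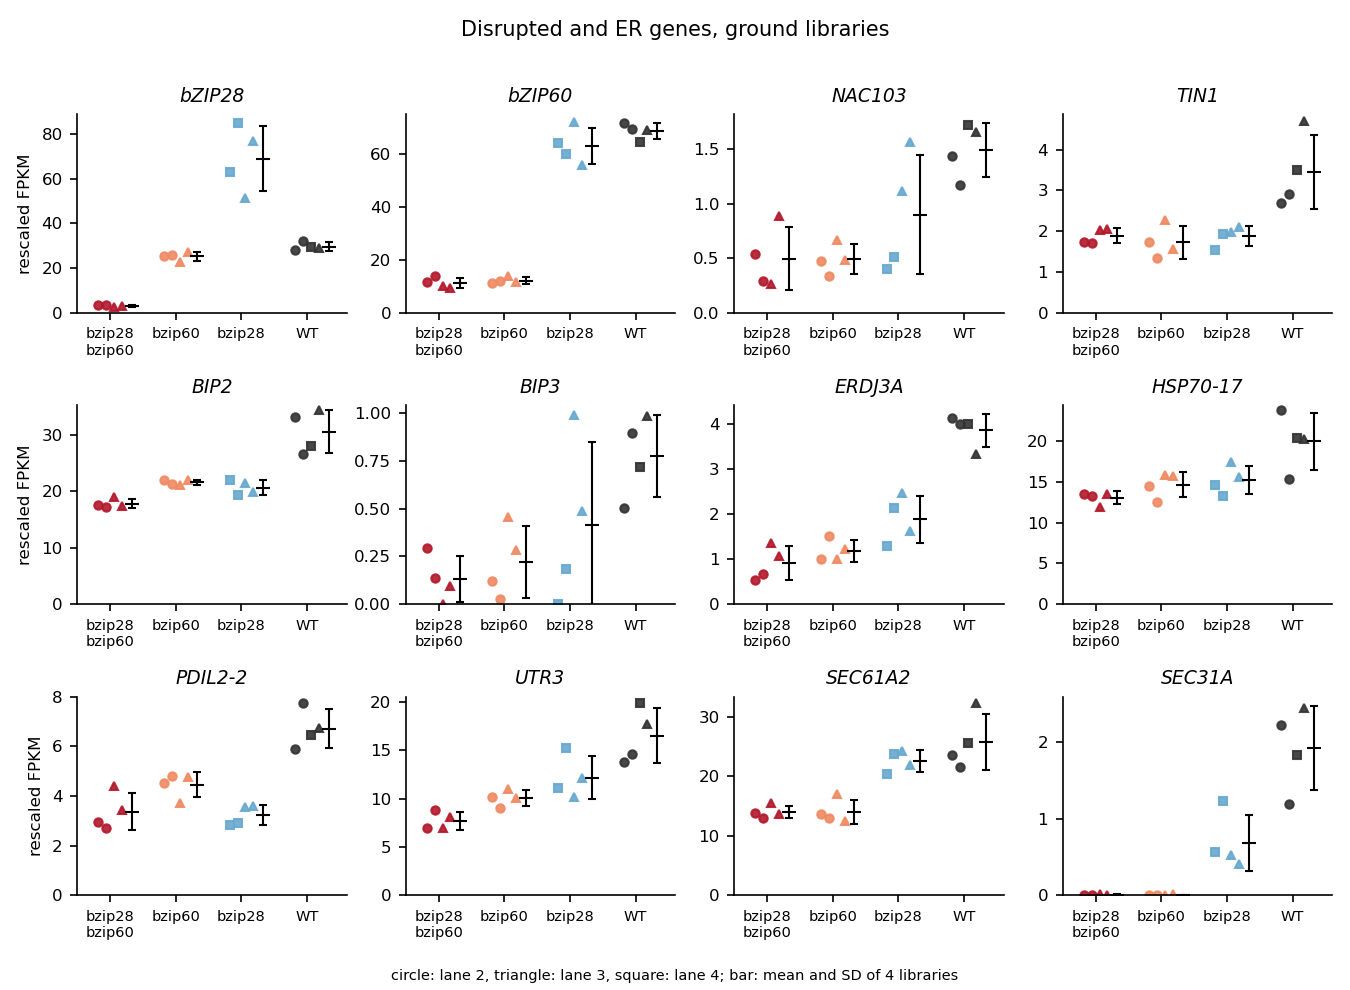
Rescaled FPKM of 12 genes by library in 4 ground genotypes, bzip28 bzip60, bzip60-2, bzip28-2 and WT, each on its own axis. Each point is a library, with its shape showing the sequencing lane, and bars show the mean and SD of 4 libraries. For BIP2 the bzip28 bzip60 libraries average 17.79 and the WT libraries 30.5, and SEC31A is at or near 0 in bzip28 bzip60 and bzip60-2.

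Against the single mutants the number of loci called depended on the scale. The comparison uses the same bzip28 bzip60 libraries as the one with WT, so both share their spread. Against bzip60-2, 2 loci (0.0104%) were higher and 2 (0.0104%) lower after rescaling, and 1 (0.00521%) higher and 2 (0.0104%) lower as deposited. As deposited 4.04% of all loci had a positive difference from bzip60-2 (median -0.365), against 51.1% after rescaling. The values that follow are rescaled. The lower ones were bZIP28 (-2.69 ± 0.10, adjusted p = 1.21e-19) and AT3G25580, annotated as a thioredoxin (-0.60 ± 0.10, adjusted p = 0.009673). The higher ones were AT5G35375 (3.16 ± 0.34, adjusted p = 6.88e-07) and the actin-related gene ARP9 (0.64 ± 0.11, adjusted p = 0.01244). None of the 14 ER genes passed this test, and rescaled BIP2 averaged 17.79 ± 0.86 FPKM in bzip28 bzip60 and 21.6 ± 0.43 FPKM in bzip60-2. A missed threshold does not show that the genotypes were alike: the differences of these genes from bzip60-2 ran between -0.35 ± 0.11 for UTR3 and 0.090 ± 0.14 for TIN1.

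Against bzip28-2, 35 loci (0.182%) were higher and 16 (0.0834%) lower after rescaling, but 1988 (10.4%) higher and 4 (0.0208%) lower as deposited, where 94.1% of all loci had a positive difference (median 0.355). The values that follow are rescaled, with 53.1% of all loci positive. bZIP28 (-4.08) and bZIP60 (-2.39) were among the lower ones, as were 2 of the 14 ER genes. SEC61A2 averaged 14.0 ± 1.03 FPKM in bzip28 bzip60 and 22.6 ± 1.82 FPKM in bzip28-2, a difference of -0.65 ± 0.10 (adjusted p = 6.45e-04). UTR3 averaged 7.72 ± 0.92 FPKM in bzip28 bzip60 and 12.2 ± 2.21 FPKM in bzip28-2, a difference of -0.59 ± 0.11 (adjusted p = 0.01057). Neither was called as deposited (SEC61A2 -0.25, adjusted p = 0.2545, and UTR3 -0.20, adjusted p = 0.3911). ERDJ3A had a difference of -0.60 ± 0.14 that did not pass (adjusted p = 0.06303). With no minimum, SEC31A was lower than in bzip28-2 as well (-0.72 ± 0.093, adjusted p = 3.68e-05). The cell wall genes EXPA6 (0.68 ± 0.15, adjusted p = 0.04485) and XTH4 (0.66 ± 0.14, adjusted p = 0.03486) were higher than in bzip28-2. The largest positive differences here, AT5G35375 (3.20), AT2G25690 (2.70) and AT1G44835 (2.59), differed from each other in where WT stood. Rescaled AT5G35375 was higher in bzip28 bzip60 than in WT too, as given below. Rescaled AT2G25690 averaged 5.68 ± 1.22 FPKM in bzip28 bzip60, 0.017 ± 0.034 FPKM in bzip28-2 and 5.41 ± 1.19 FPKM in WT.

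Some of the largest differences from WT belong to loci at which both single mutants on the ground stood apart from WT too. By the rule for named genes, 8 loci were lower on both scales with a mean of at least 5 FPKM and no overlap, the disrupted pair among them. HEI10 (AT1G53490), which encodes a RING protein of meiotic crossing over, measured 1.15, 0.806, 1.05 and 2.43 FPKM in bzip28 bzip60, against 18.5, 15.1, 19.8 and 18.7 FPKM in WT. Its difference was -3.05 ± 0.20 as deposited and -3.38 ± 0.16 after rescaling (adjusted p = 1.09e-13 and 6.13e-17). Rescaled means of HEI10 were 1.57 ± 0.45 FPKM in bzip28 bzip60, 1.31 ± 0.14 in bzip60-2, 1.91 ± 0.84 in bzip28-2 and 5.64 ± 0.64 in ire1a-4 ire1b-2, against 25.4 ± 0.70 in WT. The double mutant was thus near both single mutants, and in flight its rescaled difference from WT was -3.83 ± 0.16. MRD1 (AT1G53480) measured 0.146, 0.426, 0.1503 and 0.164 FPKM in bzip28 bzip60, against 9.36, 5.99, 8.19 and 7.50 FPKM in WT. Its rescaled difference was -3.22 ± 0.16 on the ground and -3.21 ± 0.16 in flight (adjusted p = 1.89e-16 and 3.60e-16). AT4G29200, chosen after its values were seen, was listed at 0 in all 4 bzip28 bzip60 libraries, against 4.27, 3.71, 4.17 and 4.29 FPKM in WT, and was listed at 0 in all libraries of both single mutants on the ground too.

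The mirror case was AT2G34590, annotated as a transketolase family protein. It measured 61.4, 55.4, 73.1 and 85.1 FPKM in bzip28 bzip60, against 15.3, 19.1, 14.98 and 19.9 FPKM in WT, a difference of 1.92 ± 0.22 as deposited and 1.73 ± 0.13 after rescaling (adjusted p = 3.17e-07 and 1.16e-11). The rescaled means were 83.6 ± 12.01 FPKM in bzip28 bzip60, 83.9 ± 6.75 in bzip60-2 and 93.6 ± 12.1 in bzip28-2, against 24.9 ± 6.10 in WT. In contrast, AT5G35375, an uncharacterised protein, was high in the double mutant alone among the ground libraries. It measured 7.90, 14.6, 12.2 and 17.3 FPKM in bzip28 bzip60, against 0.553, 0.518, 0 and 1.18 FPKM in WT, a difference of 3.17 ± 0.32 as deposited and 3.26 ± 0.34 after rescaling (adjusted p = 3.76e-08 and 5.96e-08). Rescaled values ran between 10.4 and 20.0 FPKM in bzip28 bzip60, and the highest value was 1.57 FPKM in bzip60-2, 4.86 FPKM in bzip28-2 and 0.617 FPKM in ire1a-4 ire1b-2.

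Of the remaining genes lower on both scales, TK1a encodes a thymidine kinase of nucleotide salvage and ATBETAFRUCT4 a vacuolar invertase that splits sucrose. TK1a measured 9.93, 8.91, 9.15 and 13.2 FPKM in bzip28 bzip60, against 19.6, 16.1, 19.3 and 22.6 FPKM in WT, a difference of -0.855 ± 0.185 as deposited and -1.07 ± 0.091 after rescaling (adjusted p = 0.01783 and 4.96e-10). It was among the genes called with the ground spread alone and also fell in flight (-0.51 ± 0.091, adjusted p = 0.002274). ATBETAFRUCT4 measured 9.55, 9.89, 11.5 and 13.7 FPKM in bzip28 bzip60, against 20.8, 14.9, 24.3 and 37.4 FPKM in WT. Its WT libraries were more scattered, and its difference was -0.998 ± 0.256 as deposited and -1.21 ± 0.20 after rescaling (adjusted p = 0.0484 and 5.18e-04). The peroxidase AT2G38390 (-1.08 ± 0.28 and -1.31 ± 0.26) and AT5G03090, whose annotated name resembles that of MRD1 (-1.83 ± 0.42 and -2.15 ± 0.44), complete the 8. Neither was called with the spread of the 20 ground libraries alone after rescaling (adjusted p = 0.1003 and 0.09305). ATBETAFRUCT4 also lost its rescaled call with the 20 ground libraries alone and with the 8 libraries alone. Its deposited call was lost without any 1 of the 8 libraries other than WT replicate 2.

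By the rule for named genes, 75 loci were higher on both scales with a mean of at least 5 FPKM and no overlap, and the 15 with the largest deposited difference had values of 1.31 to 3.17 as deposited and 1.11 to 3.26 after rescaling. Within lane 2 their rescaled differences ran between 0.65 and 3.10 and within lane 3 between 0.60 and 2.71. Besides AT5G35375 and AT2G34590 they hold LHCB1.3 and PSAG of photosynthesis, and cell wall or secreted proteins. The wall and secreted proteins are GASA4, a gibberellin-regulated peptide, GER3, a germin-like protein, PRP4, a proline-rich wall protein, GRP23, a glycine-rich protein, and XTH15, which cuts and rejoins xyloglucan. TGG1, a myrosinase that releases toxic products from glucosinolates, the plastid locus ATCG00400 and 4 loci known by number or domain (AT2G10940, AT3G16370, AT1G04800 and AT5G22580) complete the 15. GASA4 measured 391, 354, 323 and 383 FPKM in bzip28 bzip60, against 166, 177, 62.5 and 74.8 FPKM in WT. The groups were apart, with WT replicates 3 and 4 the lowest, and the difference was 1.73 ± 0.37 as deposited and 1.52 ± 0.33 after rescaling (adjusted p = 0.01744 and 0.00804).

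WT replicate 3 weighed on these calls. Without it, 9 of the 15 lost their rescaled call, with differences of 1.22 for GASA4, 1.24 for ATCG00400, 1.22 for PRP4, 1.00 for GRP23, 1.00 for AT3G16370, 0.78 for AT1G04800, 0.89 for TGG1, 0.90 for XTH15 and 1.01 for AT5G22580. Some of the 9 were also lost without another library. PRP4 was lost without bzip28 bzip60 replicate 3 (1.3) or WT replicate 4 (1.21), and AT5G22580 without WT replicate 4 (1.01). AT3G16370 was lost without bzip28 bzip60 replicates 1, 2 or 3 or WT replicates 1 or 4 (1.1 to 1.32), and AT1G04800 without bzip28 bzip60 replicates 1, 2 or 3 or WT replicate 4 (1.17 to 1.36). With the spread of the 20 ground libraries alone, AT5G35375, AT2G34590 and LHCB1.3 of the 15 kept their rescaled call.

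Of 31 tested nuclear photosynthesis genes, 8 rose on both scales and 0 fell, with a median difference of 0.81 as deposited and 0.62 after rescaling. The 8 stand beside 0.719% of all tested loci called higher on both scales. This list too was chosen with earlier results of these data known, so the count is a description. A positive rescaled difference was found in 30 of the 31, beside 53.3% of all tested loci. The 8 were light-harvesting proteins of photosystem II (LHCB1.3, LHCB3, LHCB5 and LHCB6), photosystem subunits (PSAG, PSAK and PSBQ2) and GAPB, an enzyme of carbon fixation. LHCB1.3 measured 84.7, 130, 116 and 110 FPKM in bzip28 bzip60, against 35.8, 29.9, 19.4 and 53.8 FPKM in WT. The lowest bzip28 bzip60 library lies above the highest WT library, WT replicate 4, with a difference of 1.71 ± 0.29 as deposited and 1.51 ± 0.26 after rescaling (adjusted p = 9.34e-04 and 0.00108). Members of the LHCB1 group are near-identical in sequence, and reads could be divided among them. LHCB5 measured 19.04, 25.8, 33.5 and 31.7 FPKM in bzip28 bzip60, against 9.12, 9.44, 7.31 and 17.7 FPKM in WT, a rescaled difference of 1.12 ± 0.23 (adjusted p = 0.005839). PSAG, a subunit of photosystem I, measured 45.4, 66.7, 68.9 and 81.7 FPKM in bzip28 bzip60, against 17.1, 27.8, 16.6 and 34.4 FPKM in WT, a rescaled difference of 1.26 ± 0.25 (adjusted p = 0.00412). WT replicate 4 was the highest of its group for all 3 genes. The rescaled differences of the 8 ran between 0.55 and 1.51 within lane 2 and between 0.17 and 1.08 within lane 3.

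As deposited, the number of the 31 called higher was 2 without WT replicate 3 or bzip28 bzip60 replicate 4, 4 without WT replicate 1 or bzip28 bzip60 replicate 3, and 5 without bzip28 bzip60 replicate 1. After rescaling it was 4 without WT replicate 3, 5 without WT replicate 1 or bzip28 bzip60 replicate 3, and 16 without WT replicate 2. Only LHCB1.3 was called with the spread of the 20 ground libraries alone (adjusted p = 0.03195), and 0 of the 31 with the 8 libraries alone. Rescaled levels summed over the 34 listed genes ran between 1721 and 2415 FPKM in bzip28 bzip60 and between 879 and 1716 FPKM in WT. The sum over plastid-encoded loci was 25282 ± 3895 FPKM in bzip28 bzip60 and 18163 ± 5127 FPKM in WT, also rescaled (SD, n = 4 each, two-sided exact permutation p = 0.0571, adjusted over 5 library sums 0.286). Sums of 7 shoot and epidermis markers ran between 131 and 165 FPKM in bzip28 bzip60 and between 82.6 and 146 FPKM in WT. Sums of 9 root markers ran between 1202 and 2061 FPKM in bzip28 bzip60 and between 1999 and 2313 FPKM in WT, with no marker listed at 0 throughout. Both marker ranges overlap between the genotypes, with the shoot sum reaching higher and the root sum reaching lower in bzip28 bzip60. PYK10 alone of the 6 tested root markers had a negative rescaled difference (-0.35, adjusted p = 0.3019), and the other 5 were positive. The part of the markers in the photosynthesis result was not tested. Sums of 15 seed markers (35.3 to 67.03 FPKM in bzip28 bzip60 and 48.5 to 76.3 FPKM in WT) and of 7 dividing cell markers (24.2 to 29.7 and 21.4 to 27.4 FPKM) overlapped between the genotypes. Of the seed markers only SESA2 was listed at 0 in all 8 libraries.

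**Figure D4:**
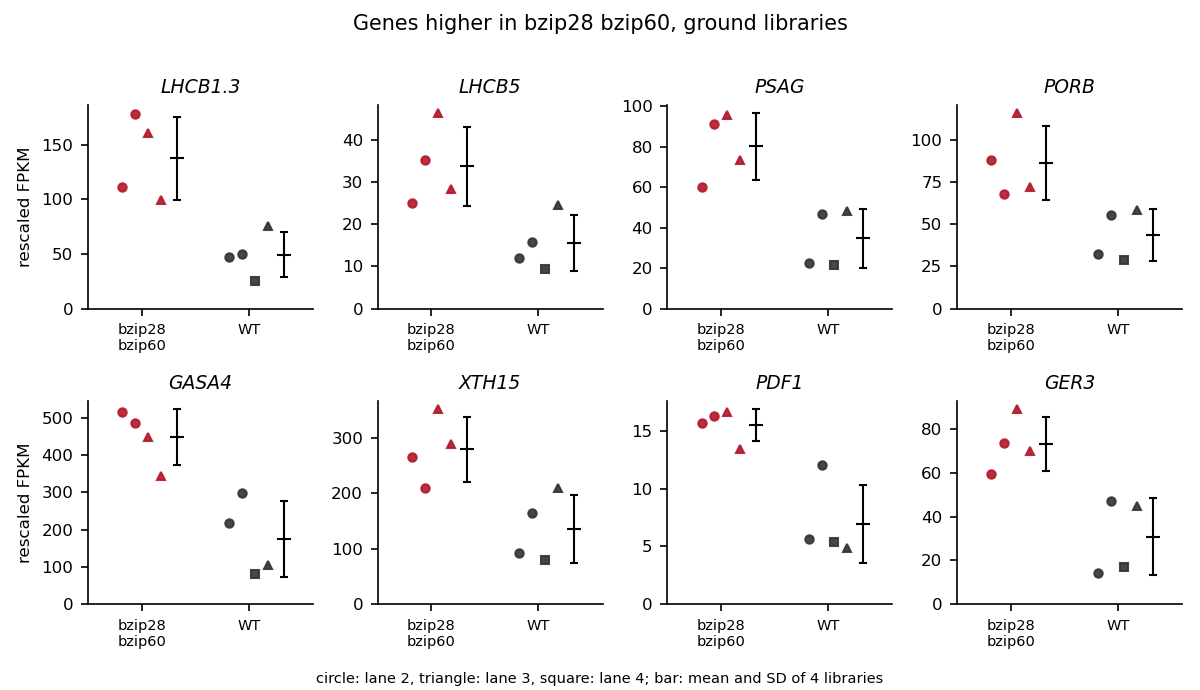
Rescaled FPKM by library of 8 genes that rose, LHCB1.3, LHCB5, PSAG, PORB, GASA4, XTH15, PDF1 and GER3, in the ground genotypes. Points are libraries, with shape by sequencing lane, and bars are the mean and SD of 4 libraries. For LHCB1.3 the means are 138 FPKM in bzip28 bzip60 and 49.4 FPKM in WT.

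In the list of light signalling and chlorophyll synthesis, 18 genes tested, PORB and CHLH were higher as deposited and PORB alone after rescaling (median 0.39 and 0.21). PORB, which makes chlorophyllide in the light, measured 66.9, 49.7, 83.7 and 80.1 FPKM in bzip28 bzip60, against 24.3, 32.99, 22.0 and 41.9 FPKM in WT. The groups were apart, with a rescaled difference of 1.00 ± 0.24 (adjusted p = 0.01492) that was not called without WT replicate 3 (0.82), WT replicate 1 (0.88) or bzip28 bzip60 replicate 3 (0.85). Of 27 tested expansins and xyloglucan endotransglucosylases, which loosen and remodel the wall, 5 rose as deposited and 4 after rescaling, and 0 fell (median 0.43 and 0.33), with 10 higher and 3 lower at an unadjusted p below 0.05 after rescaling. A pair of xyloglucan endotransglucosylases that the list does not hold, named after their values were seen, fell after rescaling but not as deposited. They were XTH11 (-0.995 ± 0.217, adjusted p = 0.008173) and XTR6 (-0.86 ± 0.19, adjusted p = 0.009947), and both lost the call without bzip28 bzip60 replicate 1 (-0.84 and -0.73) or WT replicate 4 (-0.805 and -0.675). XTH15 measured 201, 153, 254 and 322 FPKM in bzip28 bzip60, against 69.5, 97.3, 62.0 and 150 FPKM in WT, a rescaled difference of 1.11 ± 0.25 (adjusted p = 0.009296). The lowest bzip28 bzip60 library, 153, is just above the highest WT library, 150. EXPA6 measured 4.97, 5.22, 4.32 and 4.66 FPKM in bzip28 bzip60, against 2.07, 2.43, 1.78 and 2.58 FPKM in WT, a rescaled difference of 0.74 ± 0.15 (adjusted p = 0.005999). XTH8 (0.76 ± 0.14, adjusted p = 0.002286) and XTH4 (0.62 ± 0.14, adjusted p = 0.01492) were the other 2, and XTH9 was called as deposited only. Without WT replicate 3, 2 of the 27 were called after rescaling and 0 as deposited, and XTH4 was also lost without WT replicate 1 (0.52) or bzip28 bzip60 replicate 3 (0.57). Of the shoot and epidermis markers PDF1, expressed in the outermost cell layer, rose. It measured 11.9, 11.9, 11.97 and 14.98 FPKM in bzip28 bzip60, against 4.26, 7.15, 4.17 and 3.48 FPKM in WT, a rescaled difference of 1.12 ± 0.24 (adjusted p = 0.005999). With the 20 ground libraries alone or the 8 libraries alone, none of PORB, PDF1 and the 27 wall genes was called on either scale. The counts of these lists stand beside 0.782% of all tested loci called higher as deposited and 1.24% after rescaling.

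Genes of leaf yellowing and of starvation went the other way or did not pass. Of 9 tested senescence genes 3 fell after rescaling and all 9 had a negative difference, with 0 called as deposited. They were the transcription factor WRKY6 (-0.64 ± 0.14, adjusted p = 0.007901), SGR1, which starts the breakdown of chlorophyll (-0.58 ± 0.12, adjusted p = 0.003823), and PAO, a later enzyme of that breakdown (-0.53 ± 0.12, adjusted p = 0.01129). Without bzip28 bzip60 replicate 1, 1 of the 9 was called, and with the 20 ground libraries alone or the 8 libraries alone none was. Of all tested loci 1.11% were called lower after rescaling. SGR1 measured 7.88, 9.13, 8.08 and 14.4 FPKM in bzip28 bzip60, against 14.0, 11.2, 13.8 and 12.3 FPKM in WT, so that bzip28 bzip60 replicate 4 lies above all WT libraries before rescaling and below them after it. Of 20 genes of dark and sugar starvation 1 fell, DIN9 (-0.56 ± 0.15, adjusted p = 0.04028), and 18 had a negative rescaled difference. Of 11 genes of the glyoxylate cycle and beta-oxidation 1 fell, the thiolase KAT2 (-0.36 ± 0.090, adjusted p = 0.02364), and of the dividing cell markers CYCB1;1 fell (-0.65 ± 0.17, adjusted p = 0.02845). These 3 single calls each rested on several libraries, and none was made with the 20 ground libraries alone or the 8 libraries alone. None remained without bzip28 bzip60 replicates 1, 2 or 3 or WT replicates 3 or 4 for DIN9, without bzip28 bzip60 replicates 1 or 4 or WT replicates 3 or 4 for KAT2, or without bzip28 bzip60 replicates 2 or 3 or WT replicate 2 for CYCB1;1.

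Many other lists, of stress and of other functions, held no called member on the ground on either scale: autophagy (12 tested), mitochondrial stress (8), cytosolic heat shock (17), salicylate and pathogen response (15), jasmonate (11), abscisic acid, drought and cold (10), hypoxia (14), cytosolic ribosomal proteins (21), root markers (6) and seed markers (2). Their median rescaled differences ran between -0.22 for hypoxia and 0.32 for the root markers. Of their 116 tested members 4 were higher and 19 lower at an unadjusted p below 0.05 (limma, rescaled). Among all tested loci 1.24% were called higher and 1.11% lower after rescaling. The absence of calls in lists this small is near that share, and nothing is read from it. The 21 ribosomal protein genes had a median of 0.27 as deposited and 0.058 after rescaling.

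The same genotypes in flight gave fewer calls after rescaling. As deposited, fewer loci were higher in flight but more were lower, 31 against 21 on the ground. With the 20 ground libraries alone, the ground counts after rescaling were 11 higher and 37 lower. In flight 3 loci (0.0156%) were higher and 31 (0.162%) lower in bzip28 bzip60 than in WT as deposited, and 5 (0.0261%) higher and 56 (0.292%) lower after rescaling. After rescaling 26 loci were lower in both conditions, which is 12.2% of the ground list and 46.4% of the flight list, and 2 were higher in both, 0.84% of the ground list and 40% of the flight list. All 14 ER genes that fell on the ground had a negative difference in flight, where 1 was called, PDIL2-1 (-0.27 ± 0.062, adjusted p = 0.04589). A negative rescaled difference in flight was also found in 55 of all 83 tested ER list members. The same held for 162 of the 213 loci called lower on the ground after rescaling. Of all tested loci 53.1% had a positive rescaled difference in flight. The sign in flight was therefore not particular to the ER genes. After rescaling the difference between the ground and the flight value was called higher for 9 loci (0.0469%) and lower for 7 (0.0365%), and as deposited for 3 (0.0156%), LHCB1.3, AIG1 and UMAMIT14, all higher, and none of the 14 ER genes was among them. UTR3 had -0.999 on the ground and -0.25 in flight (adjusted p of the change 0.05444), UTR1 -0.94 and -0.087 (0.05444), PDIL2-2 -0.83 and -0.15 (0.06619) and BIP2 -0.74 and -0.27 (0.09703). With no minimum, the difference of SEC31A was more negative on the ground than in flight by -1.4 ± 0.13 (adjusted p = 1.86e-07). Its rescaled level in flight ran between 0 and 0.0443 FPKM in bzip28 bzip60 and between 0.0806 and 0.149 FPKM in WT, so that WT itself was lower there.

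Both disrupted genes were among the loci whose rescaled difference changed. bZIP28 was -2.91 on the ground and -1.89 in flight (change -1.02 ± 0.14, adjusted p = 2.76e-04), and bZIP60 was -2.52 on the ground and -1.15 in flight (change -1.37 ± 0.16, adjusted p = 1.09e-05). Neither change was called as deposited (-0.70, adjusted p = 0.9121, for bZIP28 and -1.14, adjusted p = 0.1239, for bZIP60). Of the 31 tested photosynthesis genes 28 had a negative rescaled difference in flight (median -0.15), where none was called on either scale (0 higher and 5 lower at an unadjusted p below 0.05 after rescaling), and 30 had a positive one on the ground. After rescaling the change was called for LHCB1.3 (1.51 on the ground and -0.66 in flight, change 2.17 ± 0.38, adjusted p = 0.005473), PSBQ2 (change 1.53 ± 0.32, adjusted p = 0.04755) and LHCB3 (change 1.34 ± 0.28, adjusted p = 0.04388). Of these only LHCB1.3 was called as deposited (change 2.36, adjusted p = 0.00792). ATBETAFRUCT4 was -1.21 on the ground and 0.23 in flight (change -1.44 ± 0.28, adjusted p = 0.02726), and was not called as deposited (-1.24, adjusted p = 0.4766). Of 14 tested hypoxia genes 6 fell in flight after rescaling and 2 as deposited, beside 0.292% and 0.162% of all tested loci. On the ground 0 fell, beside 1.11% of all tested loci after rescaling and 0.109% as deposited. At an unadjusted p below 0.05 (limma, rescaled) 5 were lower on the ground. None of the 14 had a called change between the conditions.

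**Figure D5:**
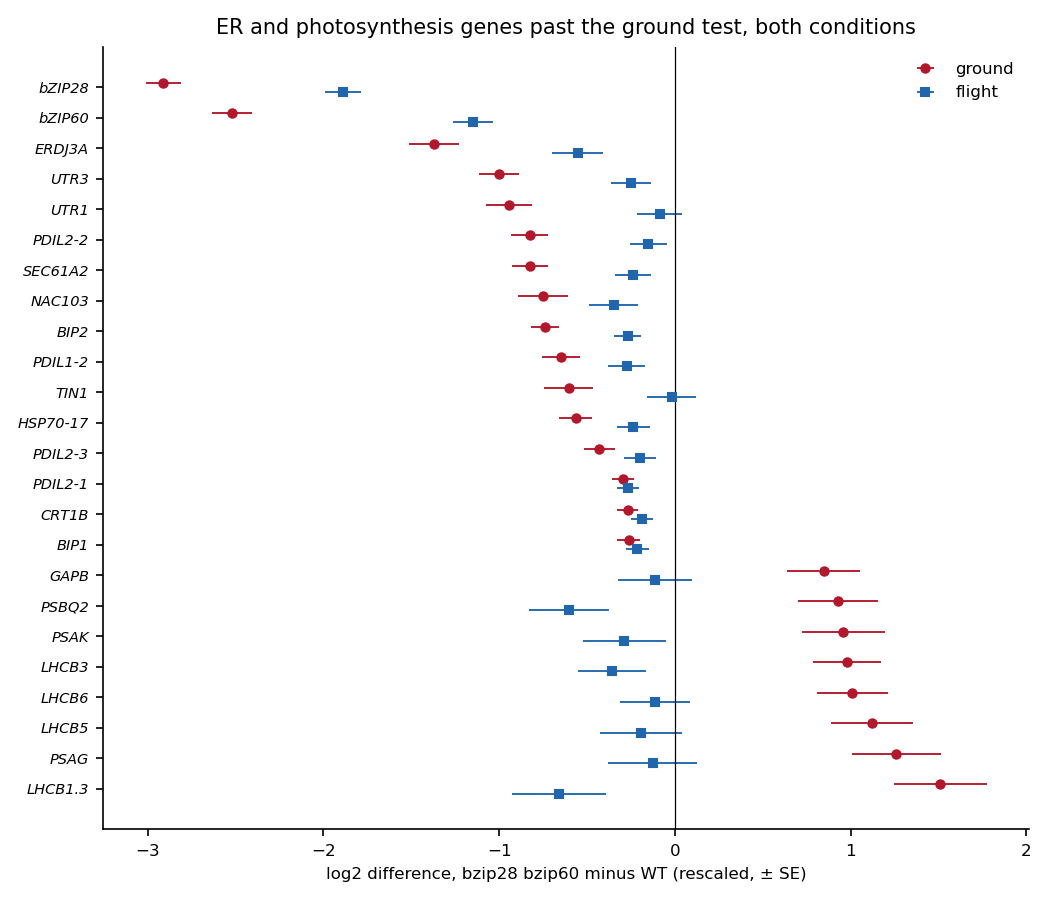
Rescaled log2 difference with its SE, bzip28 bzip60 minus WT, on the ground (circles) and in flight (squares) for bZIP28, bZIP60, the 14 ER genes that fell on the ground and the 8 photosynthesis genes that rose there, 1 row per gene. The ER genes are negative in both conditions, and the photosynthesis genes are positive on the ground and negative in flight.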

How the data were processed

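Whole-seedling messenger RNA was sequenced from stranded libraries, per the labels' protocols. The authors deposited FPKM values for 34133 loci. Per the submitters' processing notes, FastQC 0.11.5, cutadapt 1.8.1, Bowtie2 2.2.4, TopHat2 2.0.14, Cufflinks 1.3.0 and the build TAIR10 were used. Counting by strand is not given in the sources used here. Of 44 labelled samples, 40 have a column and the other 4 were not used. Columns were assigned by sample title.

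Values were taken to log2(FPKM + 1). Loci with a mean of at least 1 FPKM over the 40 libraries were fitted in limma 3.58.1 (R 4.3.3, lmFit and eBayes with trend) with 10 group means and 30 residual degrees of freedom, as deposited and after median-ratio rescaling. P-values were adjusted by Benjamini-Hochberg within a comparison. The fit was also run on simulated data with the same spread of a locus in all groups, so that run does not cover the wider spread of the ground groups. Locus names came from the RefSeq annotation of TAIR10.1, which matched 31510 loci and all 391 list loci. Its sequence served for promoters, and figures were drawn with matplotlib 3.10.9.

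Named genes were the 15 largest deposited differences in each direction among loci called on both scales, with a mean of at least 5 FPKM in 1 group and no overlap, up to 4 members per list, the disrupted genes and any ER list member. Members and all 26 lists were chosen with earlier results of these data known. Alternatives were other scalings, a pseudocount of 0.1, no minimum, fewer libraries, lane, title letter and replicate number as terms, zeros as missing, and each library left out.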

Additional observations from a re-analysis of the deposited data

Results flagged for a closer look

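Of 116 groups of 4 libraries examined, 6 had 1 library far from the other 3 by Dixon's rule, and chance gives about 1 in 20. Rescaled ERDJ3A was 3.32 FPKM in WT replicate 4, against 4.00 to 4.12 in the other 3 WT libraries. Rescaled PDF1 was 12.01 FPKM in WT replicate 2, against 4.86 to 5.63 in the others. In bzip28 bzip60, rescaled PDIL2-3 was 18.5 FPKM in replicate 3, against 15.6 to 15.7 in the others, and MRD1 was 0.583 FPKM in replicate 2, against 0.147 to 0.208. SEC31A was 0.0197 FPKM in bzip28 bzip60 replicate 3 and listed at 0 in the others. The log2 rescaling factor of bzip28 bzip60 replicate 4 was 0.15, against -0.47 to -0.40 in the others, which touches every value as deposited.

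The effect of the genotype differed between ground and flight, by the ground minus flight term of the limma fit, at 7 of the loci whose ground result is described here. The rescaled change was -1.02 for bZIP28, -1.37 for bZIP60, 2.17 for LHCB1.3, 1.34 for LHCB3, 1.53 for PSBQ2, -1.44 for ATBETAFRUCT4 and -1.88 for the peroxidase gene PA2 (adjusted p between 1.09e-05 and 0.04755). LHCB1.3 was called as deposited too, with a change of 2.36. AIG1 and UMAMIT14, named above for flight only, were called on both scales as well, with rescaled changes of 1.87 and 1.39.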

How the results depend on the processing

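Counts of calls on the ground, which were 150 higher and 21 lower as deposited and 238 higher and 213 lower after rescaling, moved with the scaling and with the libraries used. With the 8 libraries alone they were 4 and 6 as deposited and 5 and 24 after rescaling, and with the 20 ground libraries 3 and 8, and 11 and 37. Leaving out 1 library gave 20 to 146 higher and 11 to 27 lower as deposited, and 76 to 365 higher and 104 to 251 lower after rescaling. As deposited, scaling to the library total without AT2G01021 gave 267 higher and 179 lower, a pseudocount of 0.1 gave 266 higher, lane as a term 62 higher, no minimum 32 lower, and the letter of the sample title as a term 794 higher, or 367 after rescaling. In flight, the 3 higher and 31 lower loci as deposited became 5 and 56 after rescaling and 11 and 51 with no minimum. A pseudocount of 0.1 gave 15 lower, and leaving out 1 library 2 to 4 higher and 18 to 41 lower. After rescaling, the 5 higher loci in flight became 10 with no minimum and 11 with the title letter, and leaving out 1 library gave 3 to 5 higher and 33 to 58 lower. The cause of these shifts was not tested. The difference of AT2G01021 passed no threshold (exact permutation p, leaving out 1 library, 0.543 to 1 for FPKM and 0.343 to 0.886 for its share). It reversed in FPKM without WT replicate 2 (exact p = 1), and in both without bzip28 bzip60 replicate 4 (exact p = 0.571 and 0.743).

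Libraries with the same replicate number did not deviate together (correlations -0.16 to 0.032), so the numbers do not pair them. The title letters of replicates 1 to 4 were A, A, B and D in bzip28 bzip60 and A, B, D and D in WT. Libraries of the 2 genotypes with the same letter had correlations of -0.061 to 0.19, and those with different letters -0.16 to 0.056. What the letter stands for is not stated, and its part in the calls was not tested. A replicate block gave 166 higher and 25 lower as deposited and 286 and 264 after rescaling, and 4 and 34, and 5 and 60 in flight. The 14 ER genes lower after rescaling became 12 to 15 under every other alternative than the 2 with fewer libraries. Depth is unknown, so loci near 1 FPKM are limited most.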

Other observations

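Several gene families were looked at only after values were seen, so their counts are descriptions. The lists of the main results were also chosen with earlier results of these data known, and their counts are descriptions too. Of 52 tested class III peroxidases, secreted enzymes of the wall and of defence, 7 fell after rescaling and 2 as deposited, beside 1.11% and 0.109% of all tested loci. The family was split, with 24 positive and 28 negative rescaled differences and a median of -0.014. At an unadjusted p below 0.05 (limma, rescaled) 4 were higher and 12 lower. The deposited count was 0 without bzip28 bzip60 replicates 1 or 2 or WT replicates 3 or 4, and 1 without any other library. With the 20 ground libraries alone 1 was called lower after rescaling, and with the 8 libraries alone 0. PRXCB measured 110, 150, 161 and 278 FPKM in bzip28 bzip60, against 276, 218, 303 and 304 FPKM in WT, a rescaled difference of -0.93 ± 0.15 (limma, adjusted p = 2.16e-04). PA2 had the largest difference of the 7 (-1.50 ± 0.26, adjusted p = 7.68e-04) and the opposite sign in flight (0.38). Of 27 tested Aux/IAA and PIN genes, repressors and efflux carriers of the auxin pathway, 5 rose on both scales: AXR3 (0.91), IAA12 (0.52), IAA13 (0.59), PIN3 (0.56) and PIN7 (0.59), all rescaled. The deposited count was 0 without bzip28 bzip60 replicates 1 or 4 or WT replicate 3, 1 without WT replicate 4, 2 without WT replicate 2 and 3 without bzip28 bzip60 replicate 2. The rescaled count was 3 without bzip28 bzip60 replicate 1. All loci called higher were 0.782% as deposited and 1.24% after rescaling. IAA13 measured 81.4, 77.0, 66.1 and 97.0 FPKM in bzip28 bzip60, against 58.5, 42.2, 45.4 and 38.6 FPKM in WT. It was called with the spread of the 20 ground libraries alone as well (adjusted p = 0.03411).

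Of 19 tested genes of the DNA damage response and of nucleotide supply, 8 fell after rescaling and 1 as deposited (0 without WT replicates 3 or 4). This stands beside 1.11% and 0.109% of all tested loci called lower. Among the 8, besides TK1a, were TSO2, a subunit of ribonucleotide reductase (-0.93), XRI1 (-0.865), PARP2 (-0.48), SYN2 (-0.505), CYCB1;1 (-0.65) and AT3G27630 (-1.58). TSO2 measured 9.23, 8.97, 8.61 and 16.8 FPKM in bzip28 bzip60, against 17.3, 14.3, 18.7 and 22.2 FPKM in WT (adjusted p = 8.34e-05). The rescaled count was 5 without bzip28 bzip60 replicates 1 or 3 or WT replicates 2 or 3, and 3 of the 19 were lower in flight. On the ground it was 2 with the 20 ground libraries alone and 3 with the 8 libraries alone. PARP2 lost its rescaled call without bzip28 bzip60 replicates 1, 2 or 4 or WT replicates 1, 2 or 3. SYN2 lost it without bzip28 bzip60 replicates 1 or 3 or WT replicates 2 or 3, and AT3G27630 without bzip28 bzip60 replicates 1 or 3 or WT replicates 1 or 3. Of 94 tested plastid-encoded loci, 1 rose, ATCG00400, beside 0.782% of all tested loci as deposited and 1.24% after rescaling. Nothing is read from this count. The rescaled call was lost without WT replicate 3, and with the 20 ground libraries or the 8 libraries alone. With the title letter as a term, 28 were called higher as deposited and 2 after rescaling. The median rescaled difference of the 94 was 0.50 on the ground and -0.30 in flight.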
